A study of Mus musculus with 16 samples.

Results

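The genes examined here encode the enzymes and the carrier that take up and use arginine: Arg1, Arg2, Nos2, Slc7a2, Ass1 and Odc1. They were chosen by symbol. A gene was read from a probe set annotated with its symbol alone, and Odc1, which has 2 such probe sets, from the one with the higher mean over the 16 arrays. This gave 5 of the 6 genes, out of 19938 genes measured in the series. Both probe sets of Ass1, the enzyme that rebuilds arginine from citrulline, are also annotated with the pseudogene Gm5424, so Ass1 was left out.

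The cells were lung myeloid cells that the labels call CD11b+ dendritic cells, isolated by flow sorting for CD11c, MHC class II and CD11b. They came from C57BL/6 mice with an intact immune system, in whose airways Lewis lung carcinoma cells of the same strain had been placed. By their titles 8 arrays held cells from the tumour (tumoral 1 to 8) and 8 held cells from the lung tissue around it (peritumoral 1 to 8), all from tumour-bearing mice, and lungs of mice without tumours are not among the labelled groups. The age of the mice, the time after inoculation and the animals behind each array are not given in the labels, so a p-value reflects only how far these samples spread, which may be technical. The comparison of the titles asks how the transcripts of these cells differ between a lung tumour and the tissue beside it. Whether each title gives the condition of its array was not tested, and every tumoral minus peritumoral value below takes the titles as given, although many transcripts recurred every 3 arrays across both titles.

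Arginine stands at a branch point in myeloid cells. The arginases, Arg1 in the cytosol and Arg2 in mitochondria, split it into urea and ornithine, from which ornithine decarboxylase (Odc1) starts the synthesis of polyamines. Inducible nitric oxide synthase (Nos2) turns the same arginine into nitric oxide and citrulline, and the cationic amino acid carrier encoded by Slc7a2 brings arginine into the cell. In tumours, myeloid cells with much arginase are known for depleting arginine that T cells need.

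The array values are log2 expression per probe set, have no true zero and are not set against each other between genes. The array medians lay between 6.75 and 6.95. Itgax (CD11c) lay between 11.07 and 11.79, Itgam (CD11b) between 10.18 and 11.80 and H2-Ab1 (MHC class II) between 13.06 and 13.38. Flt3 and Zbtb46, which define conventional dendritic cells, ranged from 8.73 to 10.45 and from 7.27 to 8.49, while Mertk and Trem2, which define macrophages, ranged from 9.73 to 10.89 and from 8.67 to 10.74. Peritumoral 4 stood apart. It had the highest Cdh5 (endothelium, 12.09), Dcn (fibroblast, 11.41), Sftpc (alveolar epithelium, 12.81) and Cd3e (T cell, 9.34) and the lowest Itgax and Itgam, and peritumoral 7 followed it in the endothelial list (3.49 and 1.33 above the mean of all arrays). For single genes the difference between the titles was also computed without these 2 arrays, and it is given below for some of them. The counts and median differences of the pathway and marker lists were taken over all arrays only. In RNA from a sorted pool, fewer cells of a type and less RNA per cell cannot be told apart.

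Arg1, Arg2, Nos2 and Slc7a2 varied more within each title group than between the titles, whereas the SDs of Odc1 within the titles (0.27 and 0.21) were close to its difference between them (0.20). Arg1 spanned 5.04 log2 units and lay low, intermediate or high in arrays of both titles. Its lowest values, such as 5.94, lay below the array medians. Detection calls were not used here, so it is not known whether the lowest values of Arg1 or Nos2 lay above background. Slc7a2, Arg2 and Nos2 spanned 3.42, 2.87 and 1.91 units, and Odc1 spanned 1.01. By the width of its range Arg1 ranked 33 of all 19938 genes. Slc7a2 ranked 167, Arg2 ranked 275, Nos2 ranked 769 and Odc1 ranked 3742. These ranks describe genes that were chosen with the data known.

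**Figure D1:**
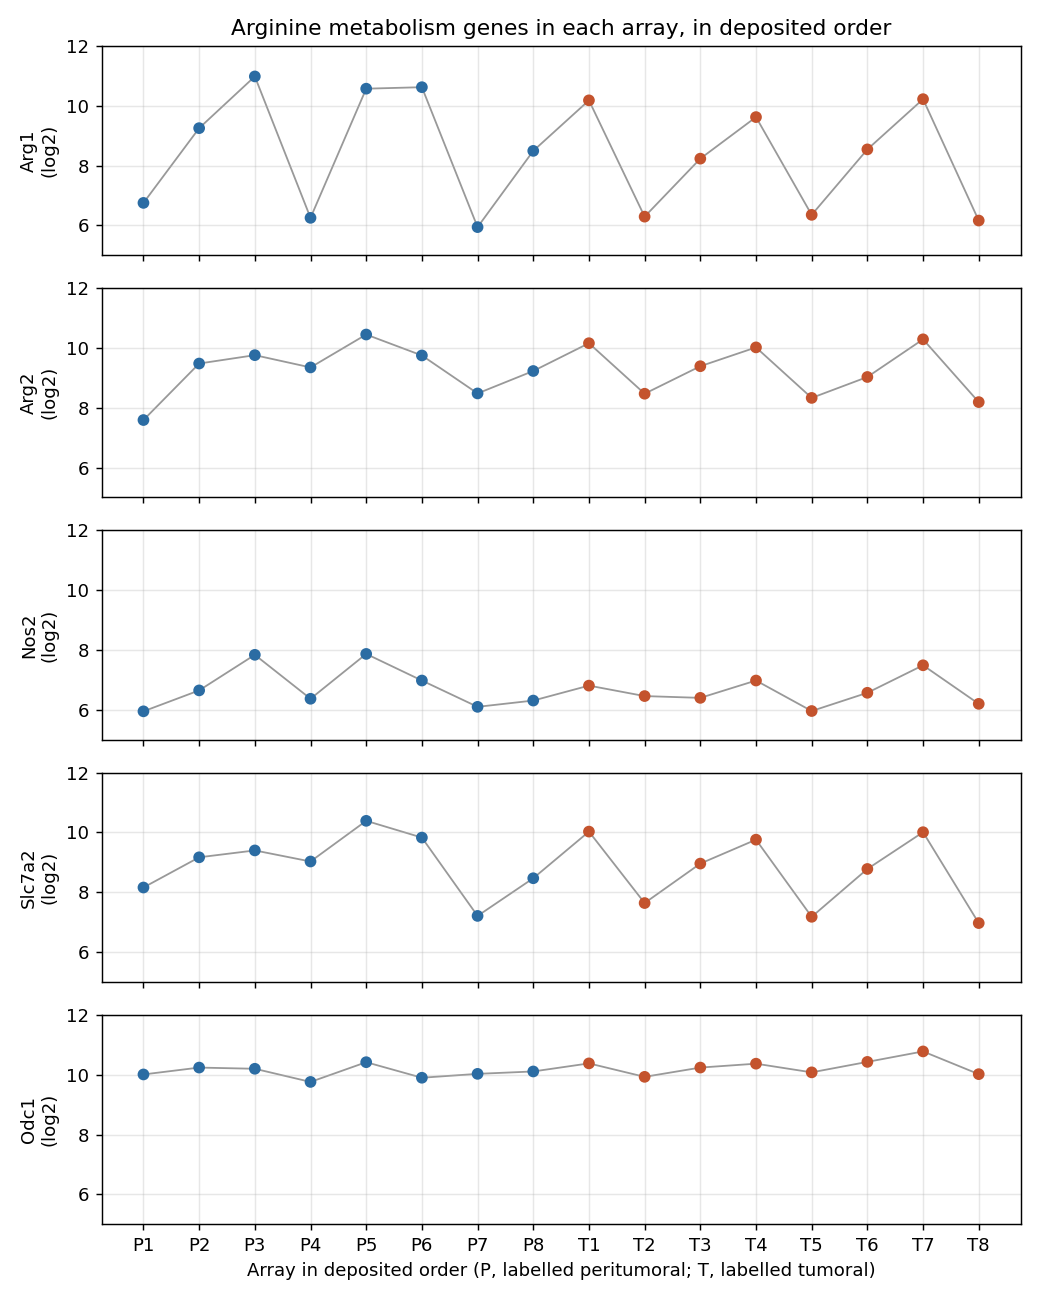
Log2 value of Arg1, Arg2, Nos2, Slc7a2 and Odc1 (top to bottom, one shared vertical scale) in each of the 16 arrays in deposited order, blue for arrays labelled peritumoral (P) and red for arrays labelled tumoral (T). Arg1 runs between 5.94 and 10.98 and returns to low values at peritumoral 1, 4 and 7 and tumoral 2, 5 and 8, while Odc1 stays between 9.76 and 10.78.

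Arg1, the cytosolic arginase, measured 6.75, 9.25, 10.98, 6.25, 10.57, 10.62, 5.94 and 8.49 in peritumoral 1 to 8. In tumoral 1 to 8 it measured 10.18, 6.29, 8.23, 9.62, 6.35, 8.54, 10.22 and 6.16. The values thus lay at 6.75 or lower in 6 arrays, peritumoral 1, 4 and 7 and tumoral 2, 5 and 8. A gap of 1.48 separated these from the next array, tumoral 3 at 8.23. Tumoral 3, peritumoral 8, tumoral 6 and peritumoral 2 lay between 8.23 and 9.25, only 0.37 below tumoral 4 at 9.62, the lowest of the other 6 arrays. The highest was peritumoral 3.

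In deposited order the low Arg1 arrays stood at positions 1, 4, 7, 10, 13 and 16, counted from peritumoral 1, so that 2 arrays stood between each low value and the next. Arrays 3 positions apart differed in Arg1 by 0.56 on average, and arrays 6 positions apart by 0.64. At spacings of 1, 2, 4 and 5 positions the mean difference was 2.71, 2.83, 2.68 and 3.07. The exception was peritumoral 5, which differed by 1.32 from peritumoral 2 and by 2.07 from peritumoral 8, whereas the other 11 pairs with this spacing differed by 0.07 to 0.60. Without the pairs that hold peritumoral 5 the mean was 0.36 at 3 positions and 2.79 at 1 position. The labels name no factor with this spacing, no condition was read from it, and the arrays were not grouped or tested by it. The spacing runs across both titles.

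Arg2, the mitochondrial arginase, followed much of this course with a smaller span. It measured 7.59, 9.48, 9.76, 9.35, 10.45, 9.75, 8.48 and 9.23 in peritumoral 1 to 8 and 10.16, 8.47, 9.39, 10.02, 8.33, 9.03, 10.29 and 8.19 in tumoral 1 to 8. Its lowest arrays were peritumoral 1, tumoral 8, tumoral 5, tumoral 2 and peritumoral 7, all low in Arg1 as well. Peritumoral 4 parted the 2 arginases, with Arg1 near the bottom of its order (6.25) and Arg2 in the middle (9.35). Arrays 3 positions apart differed in Arg2 by 0.50 on average and neighbouring arrays by 1.09.

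Slc7a2, the arginine carrier, measured 8.16, 9.17, 9.40, 9.03, 10.39, 9.83, 7.21 and 8.47 in peritumoral 1 to 8. It measured 10.03, 7.64, 8.96, 9.76, 7.18, 8.78, 10.01 and 6.97 in tumoral 1 to 8. The 3 tumoral arrays with high Arg1 (1, 4 and 7) were also the 3 highest tumoral arrays in Slc7a2, and tumoral 2, 5 and 8 were the 3 lowest for both genes. Among peritumoral arrays the order differed more: peritumoral 3, the highest in Arg1, had a lower Slc7a2 value than peritumoral 5 and 6. The mean difference was 0.67 between arrays 3 positions apart and 1.46 between neighbours.

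Nos2, the inducible nitric oxide synthase that competes with arginase for arginine, measured 5.95, 6.65, 7.84, 6.37, 7.87, 6.98, 6.10 and 6.31 in peritumoral 1 to 8 and 6.81, 6.46, 6.40, 6.98, 5.96, 6.57, 7.49 and 6.20 in tumoral 1 to 8. It was highest in peritumoral 5, peritumoral 3 and tumoral 7, all among the arrays with high Arg1, and lowest in peritumoral 1 and tumoral 5, both low in Arg1. No array combined a high Nos2 with a low Arg1: the highest Nos2 value among the 6 low Arg1 arrays was 6.46, in tumoral 2.

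Odc1, which makes putrescine from ornithine, varied least of the 5 genes. It measured 10.01, 10.24, 10.20, 9.76, 10.42, 9.90, 10.03 and 10.11 in peritumoral 1 to 8 and 10.38, 9.93, 10.24, 10.37, 10.08, 10.43, 10.78 and 10.02 in tumoral 1 to 8. The highest array was tumoral 7 and the lowest peritumoral 4, and peritumoral 6, which was high in both arginases, had the next lowest Odc1 value. The other Odc1 probe set gave the same lowest and highest arrays, at 9.17 and 10.49. Arrays 3 positions apart differed in Odc1 by 0.22 and neighbours by 0.33.

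**Figure D2:**
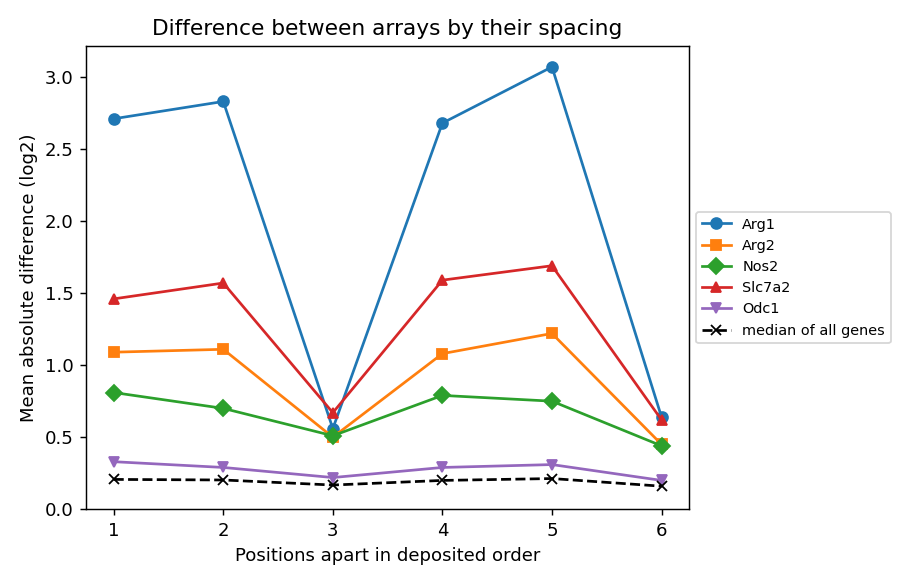
Mean absolute log2 difference (vertical axis, from 0) between arrays that are 1 to 6 positions apart in deposited order (horizontal axis), for each of the 5 genes and for the median of all 19938 genes (dashed). The curves of Arg1, Arg2, Nos2, Slc7a2 and Odc1 dip at 3 and 6 positions, Arg1 from 2.83 at 2 positions to 0.56 at 3.

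The same dip was present across the arrays as a whole. For the median gene, arrays 3 positions apart differed by 0.168 and arrays 1, 2, 4 and 5 positions apart by 0.207, 0.203, 0.200 and 0.213. Among the 6 spacings the smallest mean difference fell at 3 positions for 28.5% of all genes and at 6 positions for 39.5%. The median gene thus showed the dip too.

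Between the titles, none of the 5 genes differed by more than the spread between arrays. In limma with Benjamini-Hochberg adjustment over all genes, 0 of the 5 passed an adjusted p of 0.05, where 0% of all genes passed. At an unadjusted p under 0.05 in this fit, 0 of the 5 passed, against 11.5% of all genes (2292). Tumoral and peritumoral values overlapped for each of the 5, as they did for all but 0.0853% of genes. The mean was higher in tumoral arrays for Odc1 and lower for the other 4, and the median of the 5 differences was -0.15. Across the 19938 genes the tumoral mean was the higher for 8311 and the lower for 11627, and the median difference was -0.02.

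Arg1 averaged 8.20 ± 1.75 in tumoral and 8.61 ± 2.07 in peritumoral arrays (SD, n = 8 each). The difference, tumoral minus peritumoral, was -0.41 with a 95% interval from -2.22 to 1.40 (limma, adjusted p = 0.893). Without peritumoral 4 and 7, both low in Arg1, it was -1.25 (limma, adjusted p = 0.544). It ranged from -0.79 without peritumoral 7 to -0.07 without peritumoral 3. Both titles held arrays near 6 and arrays above 10.

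Slc7a2 averaged 8.67 ± 1.26 against 8.96 ± 1.0, a difference of -0.29 (95% interval -1.36 to 0.78; limma, adjusted p = 0.866) that was -0.57 without peritumoral 4 and 7. Arg2 averaged 9.24 ± 0.86 against 9.26 ± 0.88, a difference of -0.03 (95% interval -0.85 to 0.80; limma, adjusted p = 0.988). Its sign depended on the processing, and it was -0.14 without peritumoral 4 and 7 and 0.15 without peritumoral 5. Nos2 averaged 6.61 ± 0.48 against 6.76 ± 0.75, a difference of -0.15 (95% interval -0.74 to 0.45; limma, adjusted p = 0.880). That difference was -0.32 without peritumoral 4 and 7 and 0.01 without peritumoral 5. Odc1 averaged 10.28 ± 0.27 against 10.08 ± 0.21, a difference of 0.20 (95% interval -0.05 to 0.44; limma, adjusted p = 0.523), which was 0.13 without peritumoral 4 and 7. Its other probe set differed by 0.32. Exact two-sided permutation p-values over the 12870 assignments of the titles were 0.666 for Arg1, 0.955 for Arg2, 0.643 for Nos2, 0.609 for Slc7a2 and 0.125 for Odc1.

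**Figure D3:**
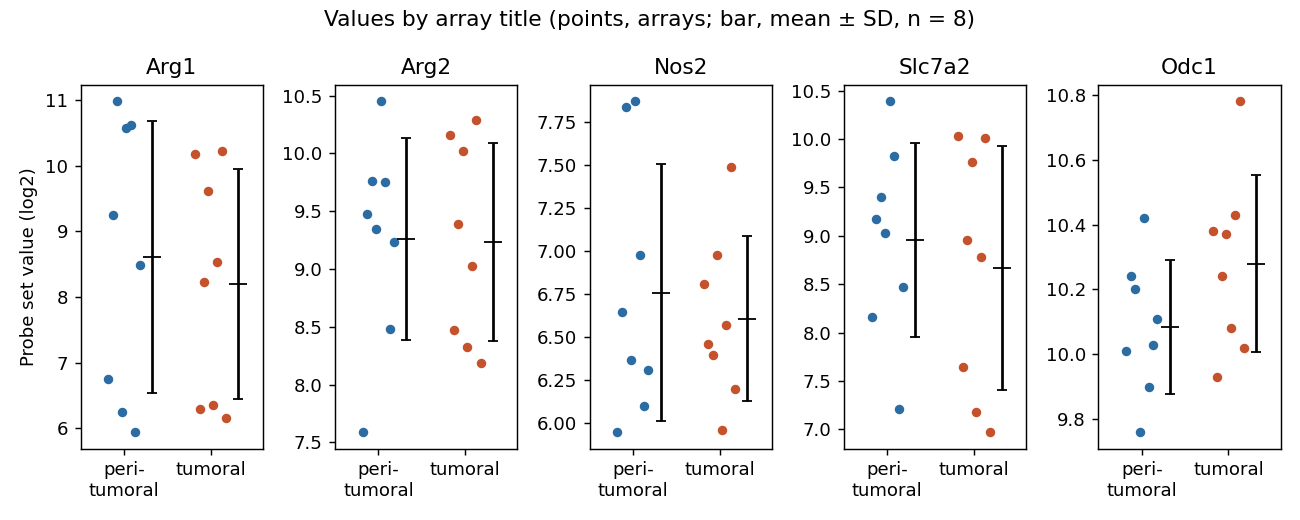
Log2 values of the 5 genes by array title (points, 8 arrays each; bar, mean ± SD), with a vertical scale of its own for each gene that does not start at 0. The points of the 2 titles overlap for every gene shown, with mean differences from -0.41 for Arg1 to 0.20 for Odc1.

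Genes with the course most like a member were taken as those with the smallest root mean square difference over the 16 arrays, after each gene was centred on its own mean. For Arg1 (SD over all arrays 1.86) these were Vcan, which encodes the matrix proteoglycan versican (0.54), Gpnmb, a membrane glycoprotein of macrophages (0.74), Rnf128, a ubiquitin ligase (0.76), and Msr1, a macrophage scavenger receptor (0.79). Vcan spanned 4.72 units, from 6.19 in tumoral 2 to 10.91 in peritumoral 3. Gpnmb parted from Arg1 in peritumoral 8 and tumoral 3, where it stood at 11.43 and 11.64, close to its own highest value of 12.10 in tumoral 1. Among the members themselves Slc7a2 lay closest to Arg1 (0.99), then Arg2 (1.19), Nos2 (1.34) and Odc1 (1.67), a distance that also counts their smaller span.

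For Slc7a2 (SD 1.11) the nearest were Bst1, a nicotinamide adenine dinucleotide-consuming ectoenzyme (0.35), Tfec, a transcription factor of the macrophage lineage (0.37), the coagulation factor gene F7 (0.40) and Atp6v0d2, a proton pump subunit (0.41). For Arg2 (SD 0.84) they were the adaptor gene Gab1 (0.24), Trem1, an activating receptor of myeloid cells (0.26), Thbs1, which encodes thrombospondin (0.28), and the coagulation factor gene F10 (0.28). For Nos2 (SD 0.61) they were the cytokine gene Lif (0.26), the uridine phosphorylase gene Upp1 (0.27), the lactate exporter gene Slc16a3 (0.27) and Cxcl3, a neutrophil-attracting chemokine gene (0.27). Odc1 had an SD of 0.25, below the minimum of 0.5 set for this search.

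**Figure D4:**
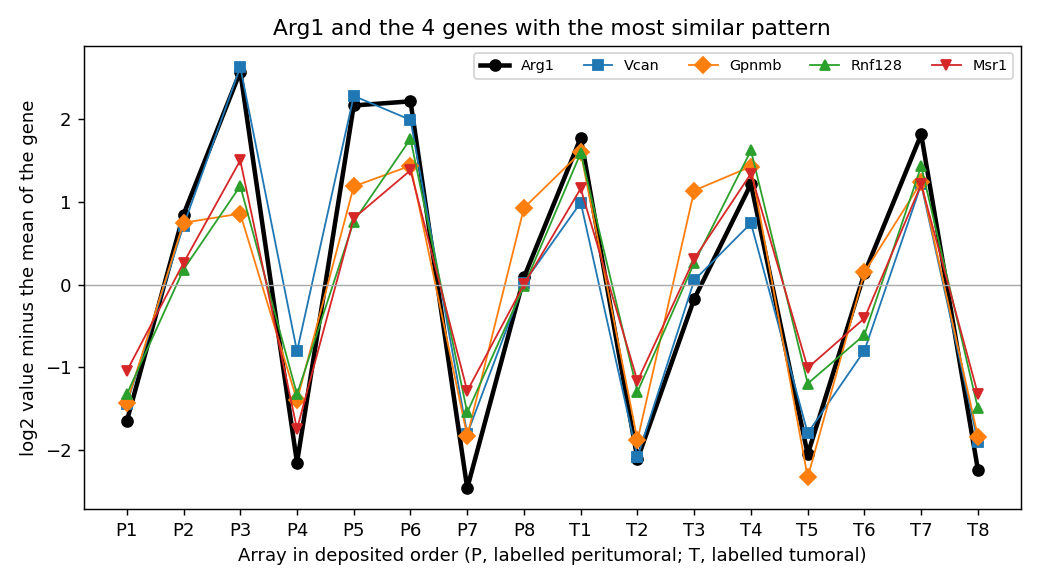
Log2 value minus the gene's own mean (vertical axis) for Arg1 (thick black) and for Vcan, Gpnmb, Rnf128 and Msr1 in the 16 arrays in deposited order, P for labelled peritumoral and T for labelled tumoral. All 5 lines lie below 0 in peritumoral 1, 4 and 7 and tumoral 2, 5 and 8, and Gpnmb stays high in peritumoral 8 and tumoral 3, where Arg1 is near its mean.

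Start-site sequences are shown for Odc1, a member, and for Vcan and Cxcl3, genes with a course like Arg1 and Nos2. They are the 250 bases before the annotated start, from RefSeq on GRCm38.p6. Of the 6 genes of the rule, 2 (Odc1 and Ass1) matched an entry. Windows of 8 genes were searched, and the 3 printed were chosen after their matches were seen. Capitals mark matches, on either strand, to a TATA element (TATAA), the core of the hypoxia response element (ACGTG), a GC box (GGGCGG) or the kappa B consensus bound by NF-kappa B.
Odc1, chr12:17544623-17544872, plus strand: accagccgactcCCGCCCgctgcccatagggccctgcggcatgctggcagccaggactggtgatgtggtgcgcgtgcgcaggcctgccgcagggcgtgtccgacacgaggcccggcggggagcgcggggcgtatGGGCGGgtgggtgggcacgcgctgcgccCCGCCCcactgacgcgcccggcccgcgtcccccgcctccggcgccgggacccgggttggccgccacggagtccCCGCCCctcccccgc
Vcan, chr13:89742513-89742762, minus strand: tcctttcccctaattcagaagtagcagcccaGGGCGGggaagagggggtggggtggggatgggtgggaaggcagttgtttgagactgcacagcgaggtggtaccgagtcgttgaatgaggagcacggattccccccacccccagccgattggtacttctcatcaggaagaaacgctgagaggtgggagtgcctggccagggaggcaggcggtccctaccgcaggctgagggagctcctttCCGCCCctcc
Cxcl3, chr5:90785851-90786100, plus strand: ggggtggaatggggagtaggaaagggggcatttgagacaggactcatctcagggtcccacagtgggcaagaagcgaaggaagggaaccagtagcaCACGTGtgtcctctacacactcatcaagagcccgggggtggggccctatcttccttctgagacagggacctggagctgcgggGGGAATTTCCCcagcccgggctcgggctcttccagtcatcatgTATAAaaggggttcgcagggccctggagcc
The Odc1 window had 80.0% G or C and 4 GC boxes, at 238, 116, 88 and 15 bases before the start. The Vcan window had 2 GC boxes. The Cxcl3 window held a TATA element at 30 bases, 2 overlapping kappa B matches at 73 and 72 bases and 2 overlapping ACGTG matches on opposite strands at 155 and 154 bases before the start. Of 32851 RefSeq windows of this length, 32.7% held a GC box, 22.8% TATAA, 16.6% ACGTG and 3.90% a kappa B match. Of the 5 windows not printed, those of Gpnmb, Lif and Trem1 held none of the 4 motifs, that of Rnf128 held 1 GC box, and that of Slc16a3 held 1 GC box and 2 ACGTG matches. Cxcl3 was thus the only one of the 8 with a TATAA or kappa B match. These matches describe letters in a window and say nothing of binding in these cells.

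The other genes of arginine uptake were measured for 7 carriers, of which 3 had a higher and 4 a lower mean in tumoral arrays (median difference -0.05). None passed over all genes in limma, with 0 at an unadjusted p under 0.05, against 11.5% of all genes. Slc7a7, a cationic amino acid exchanger subunit, ranged from 8.53 in tumoral 2 to 9.68 in tumoral 4. Slc7a5, the large neutral amino acid transporter, ranged from 9.26 in tumoral 2 to 10.35 in peritumoral 3, and Slc7a6, a relative of Slc7a7, from 8.12 in tumoral 2 to 8.98 in peritumoral 3. Neighbouring arrays differed in Slc7a5 by 0.48 and arrays 3 positions apart by 0.13. Slc7a3, another cationic carrier, ranged only from 5.34 to 6.03.

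Among 7 genes of arginine synthesis and the urea cycle, 4 were higher and 3 lower in tumoral arrays (median difference 0.06), with 0 at an unadjusted p under 0.05, against 11.5% of all genes. Asl, which releases arginine from argininosuccinate, ranged from 7.54 in peritumoral 4 to 8.29 in tumoral 4. Slc25a13, a mitochondrial aspartate carrier, ranged from 7.14 in peritumoral 4 to 8.23 in tumoral 7. The mitochondrial ornithine carrier gene Slc25a2 ranged from 6.25 to 6.92, and Cps1, which makes carbamoyl phosphate in the liver, from 5.71 to 6.17. The mean of this list moved little between arrays, by 0.08 between neighbours and by 0.07 at 3 positions.

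Of 11 other genes of nitric oxide synthesis and its cofactor tetrahydrobiopterin, 6 were higher and 5 lower in tumoral arrays (median difference 0.00), and 3 of the 11 were at an unadjusted p under 0.05, against 11.5% of all genes. None passed in limma after adjustment. The cofactor synthesis genes Pts and Spr averaged 7.57 ± 0.19 against 7.27 ± 0.16 and 7.79 ± 0.07 against 7.62 ± 0.12 (SD, n = 8), differences of 0.30 and 0.17 (limma, adjusted p = 0.256 and 0.301). Gch1, which encodes the enzyme that commits GTP to this cofactor, was lowest in peritumoral 3 (8.13), where only peritumoral 5 had more Nos2, and highest in peritumoral 7 (9.27), where Nos2 was among the 3 lowest. Ddah1 and Ddah2, which clear an inhibitor of nitric oxide synthases, peaked in peritumoral 4 at 9.08 and 7.48, the array with the highest endothelial list. The Ddah1 difference was -0.76 over all arrays and -0.30 without peritumoral 4 and 7.

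Of 7 other genes linked to ornithine, proline or other uses of arginine, 2 were higher and 5 lower in tumoral arrays (median difference -0.03). In limma 1 of the 7 was at an unadjusted p under 0.05, against 11.5% of all genes, and 0 passed after adjustment. That gene, Azin2, an inhibitor of the antizymes that restrain ornithine decarboxylase, averaged 6.70 ± 0.08 in tumoral and 6.85 ± 0.15 in peritumoral arrays (limma, adjusted p = 0.392). Aldh18a1, which starts proline synthesis from glutamate, ranged from 8.15 in tumoral 2 to 9.40 in peritumoral 3, and differed by 0.51 between neighbours and 0.19 at 3 positions. Gatm and Gamt, the enzymes that build creatine from arginine and glycine, ranged from 10.28 in peritumoral 4 to 11.96 in tumoral 4 and from 8.01 in tumoral 2 to 9.04 in peritumoral 6.

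Polyamine genes other than Odc1 were measured for 10 members, with 5 higher and 5 lower in tumoral arrays (median difference -0.05). Of these 10, 4 were at an unadjusted p under 0.05, against 11.5% of all genes, and 0 passed in limma after adjustment. Azin1, an activator of ornithine decarboxylase through its antizymes, averaged 10.30 ± 0.07 against 9.95 ± 0.26 (SD, n = 8), a difference of 0.35 (limma, adjusted p = 0.246). The polyamine transporter gene Atp13a3 differed by 0.17 and the antizyme gene Oaz2 by -0.26 (limma, adjusted p = 0.355 and 0.416), with Oaz2 at -0.15 when peritumoral 4 and 7 were left out. Eif5a, outside the naming rule, differed by -0.36 (limma, adjusted p = 0.357) and by -0.47 without these arrays. The widest ranges were those of Srm, spermidine synthase, from 8.72 in tumoral 2 to 10.52 in peritumoral 6, and Smox, which oxidises spermine, from 9.19 in peritumoral 1 to 10.70 in tumoral 7. Neighbouring arrays differed by 0.73 in Srm and 0.78 in Smox, and arrays 3 positions apart by 0.23 and 0.20.

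Of 22 regulators upstream of Arg1 and Nos2, 15 were higher and 7 lower in tumoral arrays (median difference 0.08), with 3 of the 22 at an unadjusted p under 0.05, against 11.5% of all genes, and 0 after adjustment in limma. Stat6, which carries interleukin-4 signals, averaged 10.26 ± 0.12 in tumoral and 10.43 ± 0.13 in peritumoral arrays (limma, adjusted p = 0.355). Irf1, an interferon-induced activator of Nos2, averaged 10.41 ± 0.16 against 10.05 ± 0.41 (limma, adjusted p = 0.363). Irf1 was lowest in peritumoral 3 (9.56) and highest in tumoral 7 (10.61), both among the 3 arrays with the highest Nos2. Tlr4, the lipopolysaccharide receptor, ranged from 7.80 in tumoral 2 to 9.22 in tumoral 7 and differed by 0.78 between neighbours and 0.24 at 3 positions. Csf2rb2, a cytokine receptor chain, ranged from 9.87 in peritumoral 4 to 11.02 in tumoral 7. Epas1, a hypoxia-inducible factor subunit also abundant in endothelium, measured 12.47 in peritumoral 4 and 10.68 in peritumoral 7, the 2 arrays with the highest endothelial list, and its difference was -1.43 over all arrays and -0.55 without them.

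**Figure D5:**
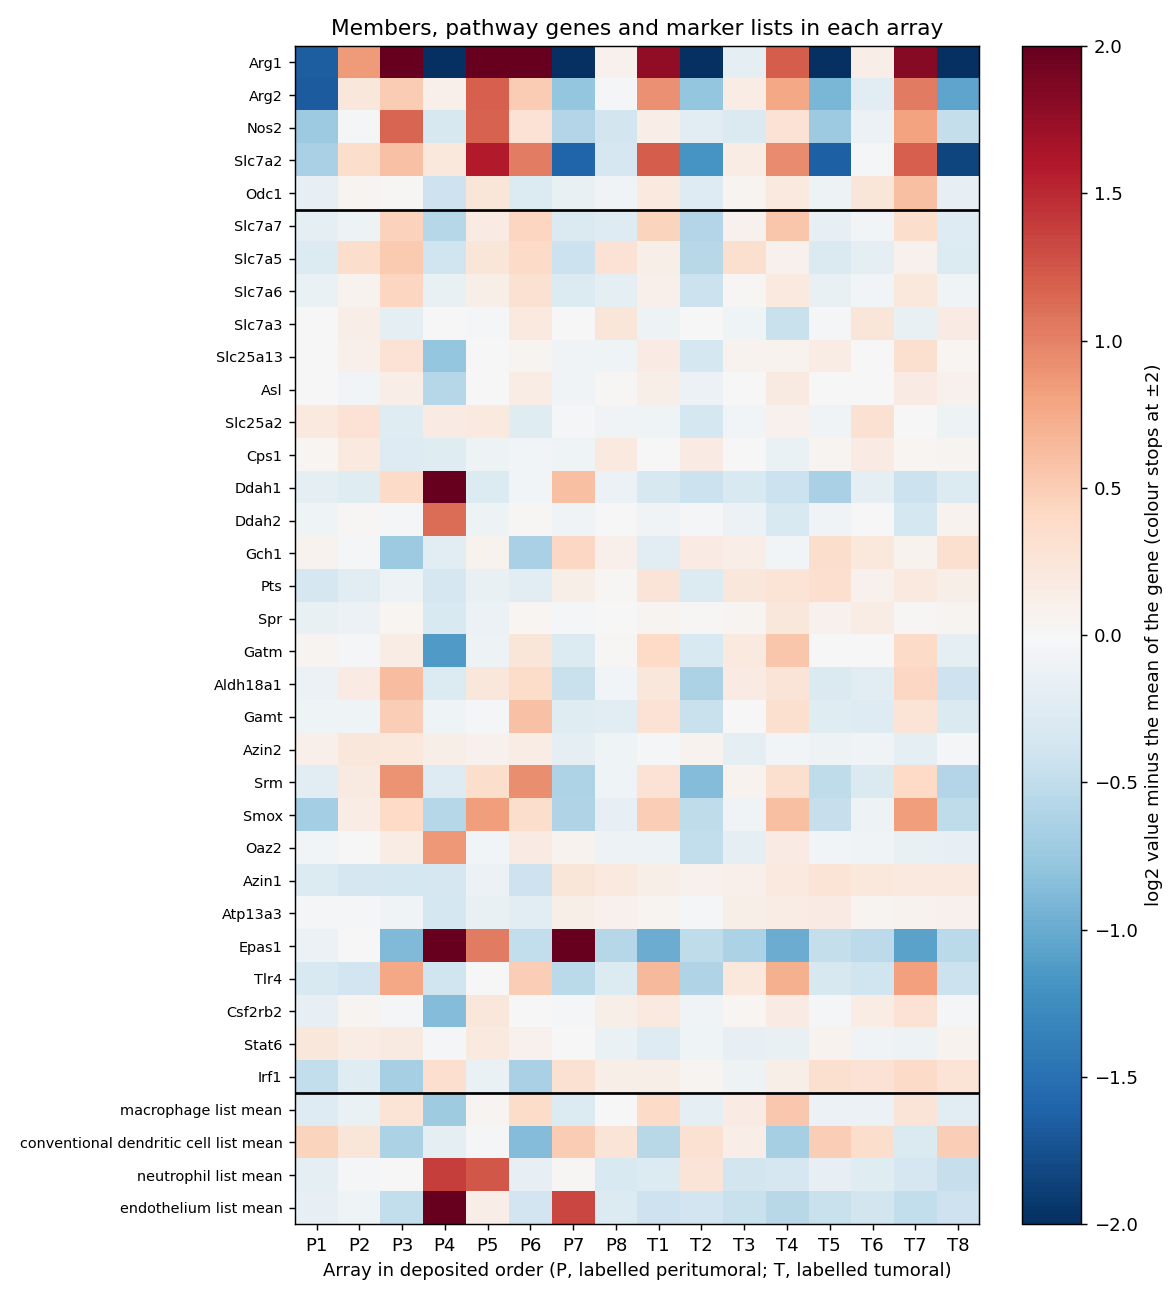
Log2 value minus the gene's own mean (colour, red above and blue below, stopping at 2 units either way) for the 5 members (top), the pathway genes named by the rule (middle) and the means of 4 marker lists (bottom) in the 16 arrays in deposited order, P for labelled peritumoral and T for labelled tumoral. Arg1, Arg2, Slc7a2, Srm and Smox share much of their course, while Ddah1 and Epas1 peak in peritumoral 4 with the endothelial list.

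The macrophage marker mean lay above 0 in each array with high Arg1 (9.62 or more). It lay below 0 in each array with low Arg1 (6.75 or lower), and had either sign in the arrays between. Leaving out Gpnmb and Msr1, the mean of 10 macrophage genes, each centred on its own mean, stood at 0.39, 0.54 and 0.26 in tumoral 1, 4 and 7 and at 0.27, 0.06 and 0.37 in peritumoral 3, 5 and 6, the arrays with high Arg1. In the arrays with low Arg1 it stood at -0.26, -0.71 and -0.28 in peritumoral 1, 4 and 7 and at -0.19, -0.12 and -0.23 in tumoral 2, 5 and 8. In the arrays between it stood at -0.13 and 0.01 in peritumoral 2 and 8 and at 0.16 and -0.12 in tumoral 3 and 6. Its range was -0.23 to 0.54 over tumoral and -0.71 to 0.37 over peritumoral arrays. Of the 10 genes 9 had a higher mean in tumoral arrays, against 8311 of all 19938 genes. Without peritumoral 4 and 7 the differences of Trem2 and C1qb turned from 0.01 and 0.03 to -0.31 and -0.10, while that of Adgre1 was 0.17. The mean of 8 conventional dendritic cell genes had the opposite sign to the macrophage mean in tumoral arrays other than tumoral 3, where both lay above 0. It stood at -0.55, -0.67 and -0.29 in tumoral 1, 4 and 7 and at 0.30, 0.49 and 0.49 in tumoral 2, 5 and 8. In tumoral 3 and 6 it stood at 0.14 and 0.35. In peritumoral arrays it stood at -0.64, -0.02 and -0.86 in 3, 5 and 6 and at 0.45, -0.19 and 0.51 in 1, 4 and 7, so that peritumoral 4, low in Arg1, lay below peritumoral 5, high in Arg1. It ranged from -0.67 to 0.49 over tumoral and from -0.86 to 0.51 over peritumoral arrays. Of the 8 genes 6 had a higher mean in tumoral arrays, against 8311 of all 19938 genes.

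The lung transcripts Scgb1a1 and Inmt recurred with the same spacing. Scgb1a1, which encodes the secretory protein of airway club cells, measured 11.53, 11.03, 7.42, 13.06, 10.55, 7.51, 12.20 and 10.47 in peritumoral 1 to 8 and 7.79, 11.44, 10.32, 7.82, 10.24, 10.95, 7.25 and 10.27 in tumoral 1 to 8. It was low in peritumoral 3 and 6 and tumoral 1, 4 and 7, which were high in Arg1, while peritumoral 5, also high in Arg1, was not low. Arrays 3 positions apart differed in Scgb1a1 by 0.51 and neighbours by 2.77. Inmt, a methyltransferase gene abundant in lung, was lowest in the same 5 arrays (5.80 to 6.42, against 9.02 to 11.94 in the others) and differed by 0.48 at 3 positions and 2.75 between neighbours. Both genes were chosen after their values were seen. Other lung epithelium genes, also looked at after their values were seen, were divided. Sftpc, Sftpa1, Sftpb and Epcam had their lowest values in these same 5 arrays. Sftpc lay between 6.99 and 7.97 there and at 8.92 or more in the others. It differed by 2.08 between neighbours and 0.79 at 3 positions, and Epcam by 0.45 and 0.20. Hopx, Tead1 and Cdh1 did not share this course. Hopx differed by 0.25 between neighbours and 0.39 at 3 positions, and Tead1 by 0.31 at both spacings. Cdh1 was highest in peritumoral 3 (9.63) and lowest in tumoral 2 (7.28). The mean of 13 lung epithelium and carcinoma cell genes ranged from -0.63 to 0.02 over tumoral and from -0.30 to 1.79 over peritumoral arrays. Of the 13 genes 13 had a lower mean in tumoral arrays, against 11627 of all 19938 genes. Without peritumoral 4 and 7 the Sftpc difference turned from -0.59 to 0.12, while that of Cdh1 was -0.73 and the other genes stayed lower. The mean of the list stood at -0.44, -0.59 and -0.63 in tumoral 1, 4 and 7 and at -0.25, 0.23 and -0.30 in peritumoral 3, 5 and 6. In the arrays with low Arg1 it stood at 0.21, 1.79 and 0.32 in peritumoral 1, 4 and 7 and at 0.02, -0.18 and -0.17 in tumoral 2, 5 and 8. The part of cell composition, lung tissue transcripts included, in the Arg1 course was not tested.

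The array with the highest Arg2, Nos2 and Slc7a2, peritumoral 5, also had a high neutrophil list mean (1.24 over 11 genes), below only peritumoral 4 (1.38). It had the highest value of Ly6g, the defining neutrophil marker (6.16), followed by peritumoral 4 (6.00). Both Ly6g values lay below the array medians, and whether they lay above background is not known. Over tumoral arrays the neutrophil list ranged from -0.46 to 0.26 and over peritumoral arrays from -0.31 to 1.38. All 11 genes had a lower mean in tumoral arrays, against 11627 of all 19938 genes. Without peritumoral 4 and 7 the Csf3r difference turned to 0.02, while that of Mmp8 was -0.80. The other arrays with high Arg1 had neutrophil list means from -0.34 to -0.01. The part of neutrophil transcripts in the peritumoral 5 values was not tested. The monocyte list without Vcan (6 genes) ranged from -0.03 to 0.22 over tumoral and from -0.45 to 0.32 over peritumoral arrays. In it 4 of 6 genes were higher in tumoral arrays, against 8311 of all 19938 genes.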

How the data were processed

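Per the labels' protocols, RNA was extracted with the miRNeasy kit, converted with the Ambion WT Expression Kit, then fragmented and biotin-labelled with Affymetrix reagents. The authors deposited a table of 28853 probe sets by 16 arrays, read here as log2 values because they run from 2.31 to 14.33. Neither the log base nor any background correction or normalization step is stated in the labels or the table. The number of arrays limits the precision.

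Of the probe sets 21789 carried 1 gene symbol, 1621 several and 5443 none in the platform annotation. The brightest single-symbol probe set was kept per gene (19938 genes). Entrez identifiers of 21698 matched RefSeq names of GRCm38.p6, which changed 0 symbols. The 2 titles were set against each other in R 4.3.3 by limma 3.58.1 (lmFit, eBayes, 14 residual degrees of freedom), Benjamini-Hochberg adjusted over all genes, after a test on simulated data. The members and gene lists were chosen with earlier results of these data known. Named genes were the members, per pathway list the 3 of widest range and the 2 of smallest p, and per member the 4 most similar genes. Deviations of same-numbered arrays correlated above 0.1 in 3 of 8 pairs. Same-numbered arrays fall at different points of the recurrence every 3 arrays, so this cannot decide whether the numbers pair arrays.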

Additional observations from a re-analysis of the deposited data

How the results depend on the processing

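No gene of arginine metabolism passed an adjusted p of 0.05 in limma in any of 119 refits, counted per gene and setting, and the smallest adjusted p was 0.289, for Odc1 without tumoral 2. Unadjusted limma p-values of Odc1 were 0.0465 with averaged probe sets, 0.0461 without peritumoral 5 and 0.0437 without tumoral 2. In these settings 2306, 2061 and 3302 of 19938 genes had an unadjusted p under 0.05. The alternatives were quantile normalization, subtraction of array medians, only genes above the median mean, array weights, a replicate block, robust variances with a trend, averaged probe sets, each array left out and peritumoral 4 and 7 left out. In 11 refits the sign of a difference turned. Arg2 was 0.028 after subtraction of array medians. Over single omissions Arg2 ran from -0.26 to 0.15, Nos2 from -0.27 to 0.010, Arg1 from -0.79 to -0.07, Slc7a2 from -0.54 to -0.05 and Odc1 from 0.12 to 0.25. The sign turned in 8 omissions for Arg2, and for Nos2 without peritumoral 3 or 5. Only genes above the median mean left out Nos2.

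The count of all genes called was 0, with 0 in the fit with the replicate block, 88 without peritumoral 4 and 7, and 0 to 128 over single omissions (128 without peritumoral 7, 20 without peritumoral 8). With the block Arg1 differed by -0.41 (limma, unadjusted p = 0.702), and no call changed. The same-numbered arrays' deviations correlated from -0.563 to 0.286, and 1 of 8 tumoral arrays correlated best with its own number.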

Other observations

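Regulators outside the naming rule were looked at after their values were seen. Hif1a, the hypoxia-inducible factor subunit named for its response to low oxygen, ranged from 10.78 in peritumoral 4 to 11.85 in tumoral 7, measured 10.80, 10.94 and 10.95 in tumoral 2, 5 and 8, and 11.72, 11.64 and 11.85 in tumoral 1, 4 and 7. Neighbouring arrays differed in Hif1a by 0.56 on average and arrays 3 positions apart by 0.19, and its means by title differed by -0.01 (limma, adjusted p = 0.986). Cebpb, a transcription factor gene that acts on Arg1, ranged from 9.65 to 10.52, with 0.34 between neighbours and 0.14 at 3 positions. Klf4, another such factor, ranged from 9.30 in peritumoral 3 to 10.35 in tumoral 3 and did not follow Arg1 at its highest array.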
